A study of Mus musculus with 6 samples.

Results

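The 6 mature miRNAs described here are markers of leukocytes, measured in whole liver: miR-142a-3p and miR-142a-5p, the 2 arms of the Mir142 hairpin; miR-223-3p and miR-223-5p, from Mir223; and miR-150-5p and miR-150-3p, from Mir150. They were taken from the table by name, as known markers of all leukocytes, myeloid cells and lymphocytes, and all 6 were among the 1907 distinct miRNAs of the table. The libraries were small RNA from whole liver of C57BL/6N mice aged 12 weeks and in normal health, 3 females and 3 males, with no treatment or altered gene named in the labels. The animals were littermates kept on chow, their livers were collected at the same hour of the day, and each library was taken as 1 animal. The study concerns acute liver injury that differs between the sexes, and the comparison asks which miRNAs differ before any injury.

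A miRNA is cut from a hairpin RNA as a short duplex. An Argonaute protein keeps one strand of it and uses bases 2 to 8, the seed, to find messenger RNAs whose output it lowers. The other strand is mostly degraded, so the arms of a hairpin usually differ in level. Blood cells use the 3 hairpins in a known pattern: miR-142 is made in nearly all lineages of blood cells, miR-223 in neutrophils, monocytes and other myeloid cells and in platelets, and miR-150 in mature B, T and natural killer cells. In the liver these cells are Kupffer cells, passing and resident lymphocytes, and the blood left in the vessels. Hepatocytes make up most of the tissue, and their main miRNA, miR-122-5p, took 32.5 to 35.5% of the counts of a library, so the tissue named in the labels carried its defining marker.

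The sequences of 5 of the 6, matched by name in RefSeq (GRCm38.p6, the assembly of mm10), show the arms and seeds that were counted; the sixth is miR-150-5p. Capitals mark the seed.
miR-142a-3p: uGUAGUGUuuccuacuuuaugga
miR-142a-5p: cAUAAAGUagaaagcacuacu
miR-223-3p: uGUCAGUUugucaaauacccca
miR-223-5p: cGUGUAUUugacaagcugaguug
miR-150-3p: cUGGUACAggccugggggauag
The 5 seeds all differed, and none of them was found in another of the 1738 mature RefSeq entries. The miR-142a arms were the richest in A and U, at 65.2% for the 3p and 66.7% for the 5p arm, against 59.1% for miR-223-3p, 56.5% for miR-223-5p and 36.4% for miR-150-3p. Next are the Mir142 and Mir223 hairpins with both mature arms in capitals, which shows which strand each count comes from.
Mir142: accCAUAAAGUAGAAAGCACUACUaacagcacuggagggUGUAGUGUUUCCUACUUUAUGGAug
Mir223: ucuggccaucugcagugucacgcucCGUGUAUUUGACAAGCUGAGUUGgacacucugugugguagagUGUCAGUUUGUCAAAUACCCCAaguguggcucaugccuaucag

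The Mir142 hairpin occupies 87756864 to 87756927 on the plus strand of chromosome 11 (mm10), in an intron of the long non-coding RNA Mir142hg, whose gene runs from 87755577 to 87757270. miR-142a-5p spans 87756867 to 87756887 and miR-142a-3p 87756903 to 87756925. The opposite strand carries an annotated hairpin of its own, Mir142b, and its mature miRNA lies across from the 3p arm:
miR-142b: ucCAUAAAGUAGgaaacacu
miR-142a-5p: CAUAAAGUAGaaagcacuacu
Capitals here mark the longest run that these 2 share, 10 bases. miR-142b had 0 counts in all 6 libraries, so no reads were assigned to the antisense copy. Mir223 lies on chromosome X from 96242817 to 96242926 (plus strand), inside an exon of the non-coding gene F630028O10Rik. miR-223-5p spans 96242842 to 96242864 and miR-223-3p 96242884 to 96242905. The nearest protein-coding gene after it is Vsig4, a receptor of resident macrophages, 4277 bases away on the other strand. Mir150 lies on chromosome 7 from 45121757 to 45121821 (plus strand) with no other annotated gene over it. miR-150-5p spans 45121762 to 45121783 and miR-150-3p 45121798 to 45121819.

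The libraries held 3285249 to 16444674 counts each, so 1 count stood for 0.0608 to 0.304 CPM, the count scaled to a library of 1000000. CPM values below are adjusted with TMM, a method that sets libraries to a common level from the bulk of their miRNAs. In levels, miR-142a-3p came first of the 6 in every library, at 0.199 to 0.334% of all counts and rank 31 to 38 among all miRNAs. Its partner arm miR-142a-5p ranked 58 to 82. miR-223-3p (rank 77 to 96) and miR-150-5p (rank 85 to 97) lay close to each other. The minor arms were rare: miR-223-5p had 11 to 42 counts in a library and miR-150-3p 1 to 10. Mature miRNAs are nearly equal in length, so these ranks need no length scaling, but how well the kit captures each sequence was not tested.

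miR-223-3p, the main product of the myeloid hairpin, was higher in female liver. It stood at 269, 316 and 381 CPM in females and at 225, 200 and 202 CPM in males. The male libraries lay close together, the females were spread more widely, and every female library was above every male one. The means were 322 ± 56.6 CPM and 209 ± 13.7 CPM (SD, n = 3 each), a 1.54-fold difference, with a log2 fold change of 0.62 (SE 0.17) and a Benjamini-Hochberg adjusted p = 0.0467 over 370 tested miRNAs (quasi-likelihood test of edgeR). This is just inside the threshold of 0.05, and miR-223-3p had the 23rd smallest p of the 25 miRNAs that passed. Leaving out female replicate 3, its highest library, raised the adjusted p in edgeR to 0.273; female replicate 2 or male replicate 3 left out gave 0.14 and 0.133, and upper-quartile scaling 0.107. The log2 fold change stayed between 0.48 and 0.76 over all 15 other fits.

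miR-150-5p, the lymphocyte marker and a known repressor of the transcription factor Myb, had the same order of the sexes with a smaller difference that did not pass. Female libraries held 286, 254 and 296 CPM and male libraries 252, 221 and 184 CPM. The groups did not overlap, but the lowest female and the highest male library nearly met. Means were 279 ± 21.7 and 219 ± 33.9 CPM (SD, n = 3 each), and the log2 fold change of 0.35 had an SE of 0.16 (adjusted p = 0.293, edgeR). It did not pass in any of the 15 other fits, where the adjusted p ranged from 0.119 to 0.677.

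miR-142a-3p, the marker shared by nearly all blood cells, did not differ beyond the spread of the males. It stood at 2880, 3241 and 3095 CPM in females and at 3252, 2168 and 2382 CPM in males. The 3 females lay close together, male replicates 2 and 3 were lower, and male replicate 1 was the highest of all 6 libraries. Its log2 fold change, 0.24 with an SE of 0.15, did not pass (adjusted p = 0.44, edgeR). The coefficient of variation between animals was 5.91% in females and 22.1% in males. Without male replicate 1 the log2 fold change was 0.41, and without male replicate 2 it was 0.13.

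miR-142a-5p followed the 3p arm library by library with wider swings. Female libraries held 555, 746 and 659 CPM and male libraries 692, 281 and 336 CPM. Male replicate 1 lay within the female range and the other males well below it. Across all libraries the log2 fold change came to 0.58 with an SE of 0.28 (adjusted p = 0.299, edgeR), nearly that of miR-223-3p in size, but with a larger error. Leaving out male replicate 1 brought it to 1.05, with an adjusted p of 0.00124 in edgeR. In that fit 2.42% of all tested miRNAs were called higher in females. miR-142a-3p stood at 0.41 there and did not pass (adjusted p = 0.0637, edgeR). Without male replicate 2 miR-142a-5p stood at 0.35. The value therefore rests on which male library is kept, and in all 6 libraries the sexes overlapped.

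The minor arms showed no difference that these counts could resolve. miR-223-5p was seen 24, 16 and 11 times in females and 28, 19 and 42 times in males, or 3.84 ± 0.655 against 3.86 ± 1.03 CPM (SD, n = 3 each). The log2 fold change of 0.07 had an SE of 0.33 (adjusted p = 0.942, edgeR), and its sign changed in 4 of the other fits. miR-150-3p, with 3, 1 and 2 counts in females and 1, 3 and 10 in males, was too low to be tested. From its summed counts, 6 and 14, the female to male ratio was 0.855 with an exact 95% counting interval from 0.269 to 2.37.

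Of the 5 tested members, 1 was called higher in females, where 3.24% of all tested miRNAs were, and none lower; 6.76% were called in either direction. Every female library lay above every male library for 2 of the 5, miR-223-3p and miR-150-5p, against 10.5% of all tested miRNAs. The log2 fold changes of all 5 were above 0 in the fit on all 6 libraries with TMM, with a median of 0.35. Only that of miR-223-5p fell below 0 in any other fit. Its fitted value of 0.07 (SE 0.33) was near 0, and its mean CPM was slightly lower in females, at 3.84 against 3.86. In the fit on all 6 libraries with TMM the median of all 370 tested miRNAs was -0.01 and 48.1% were positive. The members are not independent of each other, since 4 of the 5 are arms of 2 hairpins. They were also chosen with earlier results of these data known, so these comparisons with all tested miRNAs are a description. In whole tissue, more leukocytes and more of a miRNA per leukocyte cannot be told apart.

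**Figure D1:**
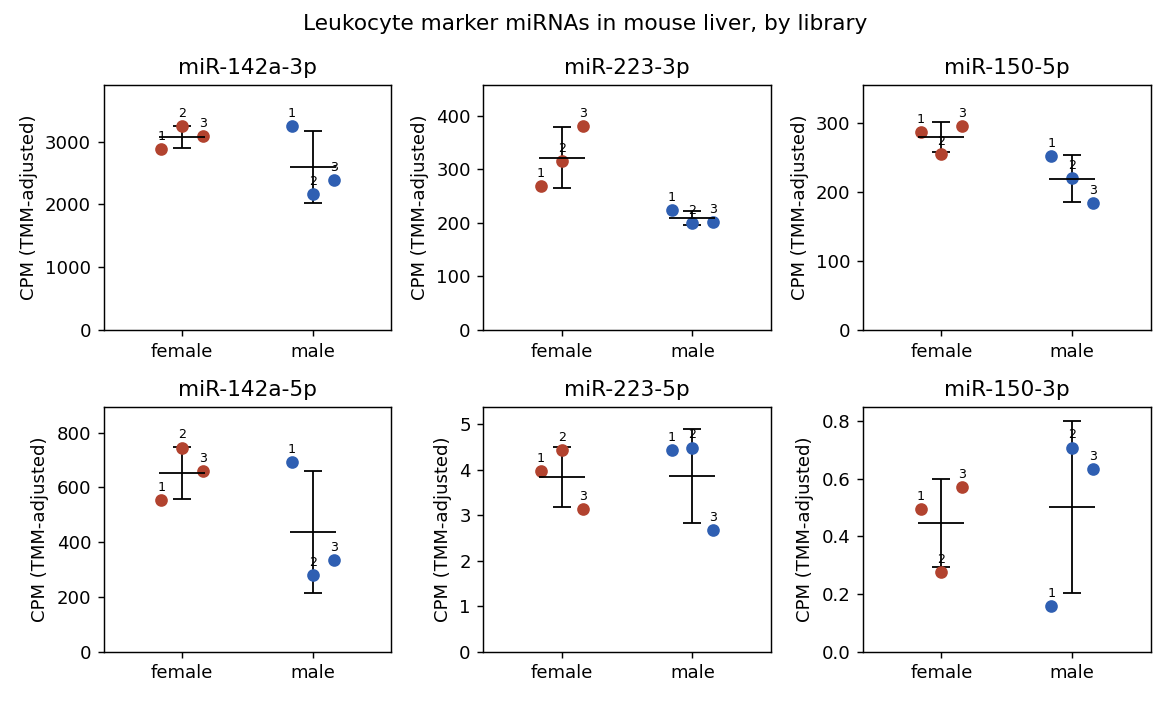
Level of each of the 6 miRNAs in CPM (TMM-adjusted, linear axes from 0) in the 3 female and 3 male livers; points are libraries numbered by replicate, and bars show the mean and SD. The female points lie above all male points for miR-223-3p and miR-150-5p, while male replicate 1 lies at the female level for both miR-142a arms.

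**Figure D2:**
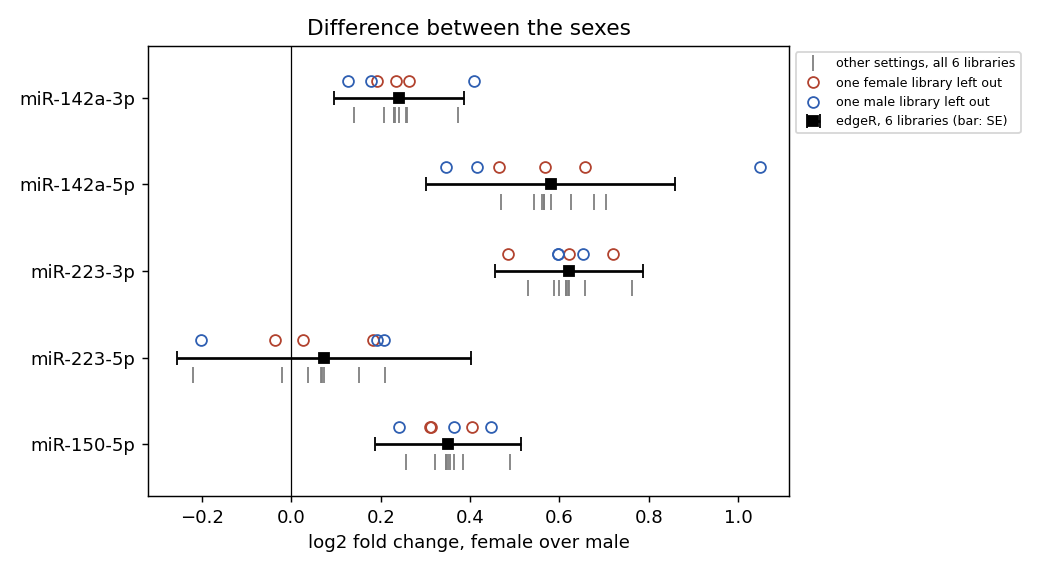
Log2 fold change, female over male, of the 5 tested members: squares with bars are the edgeR estimate and its SE, circles leave out 1 library each, and ticks are other settings on all 6 libraries. Values for miR-223-3p stay between 0.48 and 0.76, those for miR-223-5p lie on both sides of 0, and 1 circle for miR-142a-5p, without male replicate 1, stands at 1.05.

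Ratios between the members within a library do not depend on how libraries are scaled to each other. Per count of miR-142a-3p, the count of miR-223-3p was 0.0932, 0.0974 and 0.123 in females and 0.0691, 0.0923 and 0.0848 in males. Every female ratio was above every male ratio, though female replicate 1 and male replicate 2 nearly met. The mean log2 ratio was -3.27 ± 0.216 in females and -3.62 ± 0.215 in males (SD, n = 3 each), a difference of 0.35 (exact two-sided permutation test, p = 0.1, the smallest that 3 against 3 allow; 0.45 after Benjamini-Hochberg adjustment over 6 ratios). The ratio was thus higher in 3 of 3 females than in any male, and did not pass the correction. The difference was 0.23 without female replicate 3 and 0.23 without male replicate 1.

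miR-223-3p and miR-150-5p were nearly equal in count. Their ratio was 0.938, 1.24 and 1.29 in females and 0.892, 0.907 and 1.10 in males, and the sexes overlapped. The log2 difference was 0.25 (exact permutation test, p = 0.2; adjusted p = 0.45), or 0.40 without female replicate 1 and 0.17 without female replicate 3. miR-142a-3p over miR-150-5p ran from 10.1 to 12.7 in females and from 9.83 to 12.9 in males, with a log2 difference of -0.10 (exact permutation test, p = 0.8; adjusted p = 0.8) that ranged from -0.23, without male replicate 2, to -0.03 when a library was left out.

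**Figure D3:**
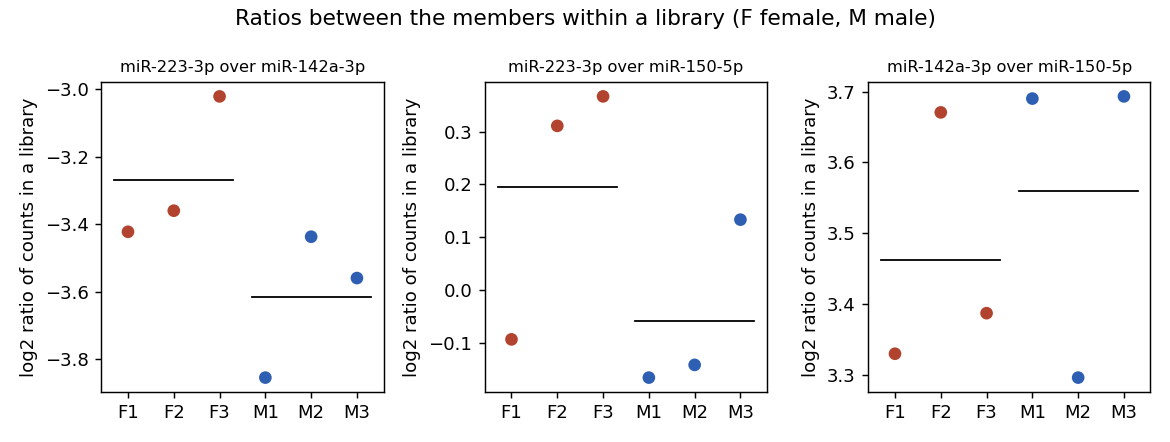
Log2 ratio of the counts of 2 members within each library (F1 to F3 female, M1 to M3 male replicates); lines are group means and each panel has its own axis. The miR-223-3p over miR-142a-3p ratio is higher in all 3 females, from -3.42 to -3.02, than in the males, from -3.86 to -3.44, while the other panels overlap.

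The arms of each hairpin were shared out very unequally and in a way typical of the hairpin. The 5p arm made up 16.2, 18.7 and 17.5% of the miR-142a counts in females and 17.6, 11.5 and 12.4% in males. Exact binomial intervals at 95% were narrow, from 17.1 to 18.0% in male replicate 1 and from 10.9 to 12.1% in male replicate 2, and they cover counting error only. Male replicates 2 and 3 stood below the other 4 libraries, among which male replicate 1 could not be told from female replicate 3. The log2 ratio of the 3p to the 5p arm was 2.24 ± 0.128 in females and 2.67 ± 0.381 in males (SD, n = 3 each), a difference of -0.42 (exact two-sided permutation test, p = 0.3; adjusted p = 0.45 over 6 ratios). Without male replicate 1 it was -0.64.

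For miR-223 the 5p arm took 1.45, 1.38 and 0.816% of the hairpin's counts in females and 1.94, 2.19 and 1.30% in males. The intervals of all 6 libraries overlapped, for example 0.408 to 1.46% in female replicate 3 and 1.33 to 3.41% in male replicate 2. The log2 ratio of the 3p to the 5p arm differed by 0.57 between the sexes (exact permutation test, p = 0.3; adjusted p = 0.45), or by 0.31 without female replicate 3. miR-150-3p took 0.109 to 0.192% in females and 0.0628 to 0.344% in males, on 1 to 10 counts. The log2 ratio of its 5p to its 3p arm, female minus male, was 0.23 (exact permutation test, p = 0.8; adjusted p = 0.8) but had no stable sign: it was -0.11 without male replicate 2, -0.086 without male replicate 3 and 0.89 without male replicate 1. The preferred strand was the 3p arm of miR-142a and miR-223 and the 5p arm of miR-150 in each library.

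Both arms of miR-142a moved together but not by the same amount. Male replicate 1 held 1.5 times as much miR-142a-3p as male replicate 2 and 2.46 times as much miR-142a-5p, and against male replicate 3 the factors were 1.37 and 2.06. Across the 6 libraries the log2 levels of the arms had a Pearson r of 0.997, a description of points that share library and hairpin. Over these libraries miR-142a-3p had r of 0.69 with miR-223-3p and 0.70 with miR-150-5p, and the arms of miR-223 had -0.07.

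The arms of some other deeply counted hairpins shifted in the same male libraries, while a wider set of hairpins did not do so in common. There were 6 hairpins with at least 1000 counts of each arm in every library, a limit set after the values were seen: miR-142a, miR-126a, miR-192, miR-199a, miR-30a and miR-30e. The log2 ratio of 5p to 3p, less the hairpin's median, was -0.64 for miR-142a in male replicate 2 and -0.52 in male replicate 3. Of the other 5 hairpins, 4 were also below their medians in each of these libraries, with a median of -0.44 and -0.14, and the exception was miR-192 in both. Any hairpin is below its own median in some libraries. In male replicate 3 the values were -0.37 for miR-30a, -0.32 for miR-30e, -0.14 for miR-199a and -0.08 for miR-126a. miR-199a was also at -0.14 in female replicate 1. With a limit of 100 counts, also set after the values were seen, 20 hairpins other than miR-142a qualified, these 5 included; in male replicate 2 their median was -0.12 with 12 of 20 below their medians, and in male replicate 3 it was 0.04 with 9 of 20 below. The SD over the 6 libraries was 0.34 for miR-142a and from 0.13 to 0.28 for the other 5. Among 92 hairpins with both arms tested, many with few counts, miR-142a ranked 39 by this SD. The cause of the arm shift was not tested.

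**Figure D4:**
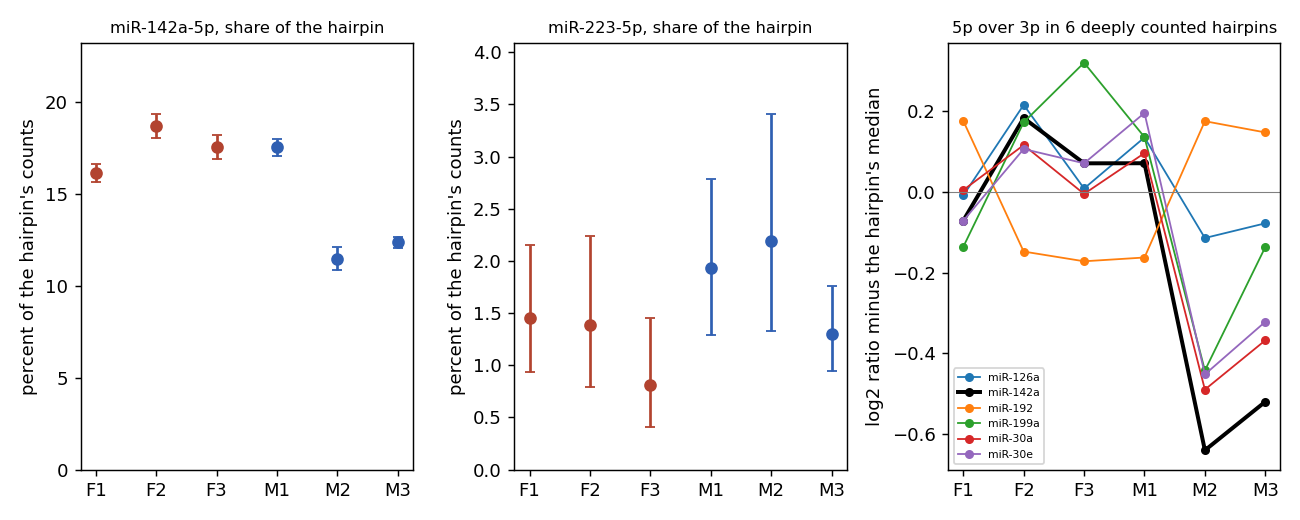
Left and middle: the 5p arm as a percent of the counts of the miR-142a and miR-223 hairpins, with exact 95% binomial intervals. Right: log2 ratio of 5p to 3p less the hairpin's median for 6 deeply counted hairpins, where lines join the values of 1 hairpin. miR-142a reaches -0.64 and -0.52 in male replicates 2 and 3, where 4 of the other 5 hairpins shown also lie below 0.

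The correlation of miRNA levels with base composition differed between male replicates 1 and 2, but that of male replicate 3 lay within the female range. Over 212 of 243 miRNAs with a mean of at least 10 CPM and a sequence at hand, the share of A and U correlated with the deviation of a library from the mean of the 6, with a Spearman rho of 0.29 in male replicate 1, -0.32 in male replicate 2 and 0.11 in male replicate 3, and from -0.07 to 0.20 in females. These are correlations across miRNAs within a library and serve as a description. The miR-142a arms were among the A- and U-rich miRNAs, with 25 of the 212 at or above miR-142a-3p. The part of base composition in the spread of miR-142a among males was not tested.

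Other miRNAs of leukocytes had small positive differences that did not pass. Of 11 named miRNAs, 4 were high enough to be tested. The log2 fold changes of all 4 were above 0 under each scaling tried, with a median of 0.21 (-0.01 over all tested miRNAs), and none passed. miR-146a-5p, induced by NF-kB and a brake on it, was the most abundant, at 2262 ± 270.2 CPM in female and 2020 ± 39.1 CPM in male liver (SD, n = 3 each; log2 fold change 0.16, adjusted p = 0.532, edgeR). miR-342-3p, from an intron of Evl, stood at 469 ± 24.9 and 373 ± 83.9 CPM (0.33, adjusted p = 0.323, edgeR). miR-155-5p, raised in activated lymphocytes and macrophages, was low, at 39.8 ± 7.18 and 33.4 ± 4.31 CPM (0.25, adjusted p = 0.629, edgeR). miR-511-3p, from an intron of the macrophage mannose receptor gene Mrc1, was at 7.66 ± 2.76 and 6.61 ± 0.629 CPM (0.17, adjusted p = 0.808, edgeR). miR-155-3p and miR-142b were at 0 in all libraries. The sum of these 11, mostly miR-146a-5p, lay at 2502 to 3020 CPM in females and 2403 to 2493 CPM in males. The sexes did not overlap, here or in CPM without TMM, but with TMM the lowest female and the highest male nearly met. In male replicate 1, the highest of all for miR-142a-3p, the sum of the 11 stood at 2406 CPM.

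Markers of the other cells in the tissue were set beside the members. The 7 erythroid miRNAs, a gauge of blood left in the tissue, summed to 231 to 391 CPM in females and 242 to 289 CPM in males; 5 were tested, with a median log2 fold change of 0.13, and none passed. Of the 5, 4 were positive (5 with no TMM factor, 3 with upper-quartile factors). The largest log2 fold change of the list was that of miR-451a, 0.51 with an SE of 0.25 (adjusted p = 0.32, edgeR), at 27.9, 47.1 and 37.9 CPM in female and 27.9, 19.4 and 30.9 CPM in male liver, so the sexes overlapped. The 3 most abundant lay nearer to 0: miR-486a-5p stood at 114 ± 16.5 and 112 ± 45.5 CPM, miR-144-5p at 74.4 ± 31.3 and 67.8 ± 9.11 CPM and miR-144-3p at 61.5 ± 23.9 and 52.2 ± 20.9 CPM (females and males; SD, n = 3 each). Female replicate 3, the highest for miR-223-3p, had 267 CPM of erythroid miRNAs, within the male range. Its miR-451a, at 37.9 CPM, was above that of every male. The erythroid miRNAs did not rank the libraries alike: male replicate 2 was highest for miR-486a-5p (165 CPM) and lowest for miR-451a (19.4 CPM). The sums of the 2 endothelial miRNAs overlapped between the sexes, at 67777 to 71815 CPM and 68763 to 76034 CPM. Neither passed; log2 fold changes were 0.02 for miR-126a-5p and -0.07 for miR-126a-3p, both positive with no TMM factor and both negative with upper-quartile factors. The 6 stromal miRNAs were all negative, except for miR-214-3p with no TMM factor, and their median was -0.22. Among them were miR-199a-3p (-0.38), miR-199b-3p (-0.35), which has the same mature sequence, and miR-143-3p (-0.21). No stromal miRNA passed, and their sum was 10220 to 13100 CPM in females and 13980 to 14709 CPM in males. The 4 hepatocyte miRNAs summed to 370307 to 373944 CPM in females and 396795 to 440402 CPM in males. Their log2 fold changes were -0.21 for miR-122-5p, 0.44 for its partner arm miR-122-3p, 0.02 for miR-192-5p and 0.17 for miR-194-5p. None passed, and miR-122-5p came nearest, with an adjusted p of 0.053 in edgeR. Of these 4, 3 were positive, or 2 with upper-quartile factors, where miR-192-5p fell below 0. In CPM without TMM, the sexes overlapped in both the stromal and the hepatocyte sum. The part of these other cells in the difference of miR-223-3p was not tested.

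**Figure D5:**
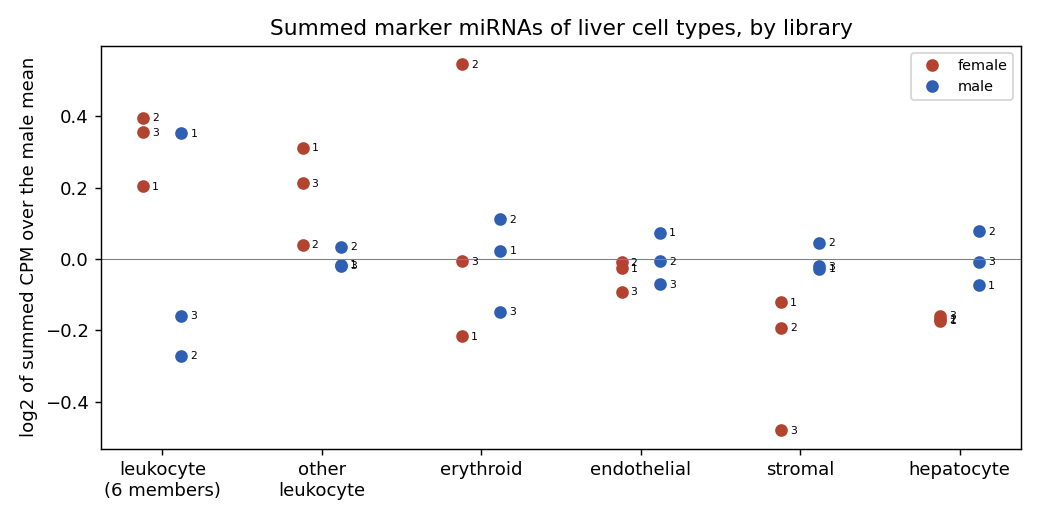
Summed CPM of the marker miRNAs of each cell type in each library, as log2 over the mean of the 3 male libraries; numbers are replicates. The sum of the 6 members, mostly miR-142a-3p, overlaps between the sexes because male replicate 1 lies at 0.35; the erythroid and endothelial sums overlap too. The stromal and hepatocyte sums lie apart here but overlap in CPM without TMM. The other leukocyte sums lie apart here and without TMM, but here by a small margin (lowest female 2502 CPM, highest male 2493 CPM).

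The miRNAs whose levels ran most like the members' over the 6 libraries were found among 239 others with a mean of at least 10 CPM. For miR-142a-3p they were miR-335-5p (Pearson r = 0.98), miR-301a-3p (0.95) and miR-101b-3p (0.94), none of which passed the test between the sexes. For miR-223-3p they were miR-434-3p (0.96), miR-299a-5p (0.94) and miR-802-5p (0.94). The last, higher in females, passed with a log2 fold change of 2.29, while miR-434-3p (0.75) and miR-299a-5p (0.94) did not. For miR-150-5p they were miR-34a-5p (0.85), miR-107-3p (0.85) and miR-674-3p (0.81), of which miR-34a-5p passed, at 1.78. With 6 points that also differ by sex, a high r is easily reached, and these values are a description.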

How the data were processed

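Small RNA was sequenced from 6 livers. The authors deposited estimated counts of reads per mature miRNA, not normalised, of which 98.9% were whole numbers. The submitters' processing notes name Partek, Bowtie and the mm10 build, with no versions. Steps such as trimming, the treatment of reads with several matches and molecular identifiers were not given in the sources used here. The table had 2045 rows, and 138 exact repeats were left out. Counts were rounded. No library pair was a duplicate (chi-square per degree of freedom at least 25.3). Replicates were numbered in accession order and pair no animals.

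Females were compared with males in edgeR 4.0.16 (R 4.3.3) with TMM and filterByExpr (minimum count 10, minimum total 15). The robust quasi-likelihood test was used, with Benjamini-Hochberg adjustment over 370 tested miRNAs and a threshold of 0.05. The fit was also run on simulated counts with the same spread for all miRNAs, which does not test the calls made here. SE was the log2 fold change over the root of F. Ratios used counts plus 0.5 and exact permutation tests (scipy 1.17.1). Alternatives were other scalings, filters, DESeq2 1.42.0, limma 3.58.1, thinning and leaving out each library. Positions matched RefSeq for 1613 of 1622 miRNAs with the stop read as the base after the end; gene annotation is GENCODE M21. Named are the 6 members, the 3 most similar miRNAs of each main arm, and the 3 most abundant of each marker list. miR-511-3p, miR-451a, miR-214-3p, miR-122-3p, those at 0, and the hairpins with deep counts were named after their values were seen. The members and lists were chosen with earlier results of these data known.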

Additional observations from a re-analysis of the deposited data

How the results depend on the processing

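Of 137 values recomputed under alternatives, 120 were kept. For fold changes, kept meant the same direction and side of the threshold, so a member that never passed was kept while its direction held. miR-223-3p, the only member called, was kept in 6 of 9 other settings and in 3 of 6 fits without a library. For ratios between members, kept meant the same direction only, and for the number of calls a value within 1.5 times. The 25 miRNAs past the threshold became 12 after thinning, where counts were fewer, and between 9 and 32 on leaving out 1 library. With no TMM factor 65% of the calls were higher in females (13 of 20) and with upper-quartile factors 26.9% (7 of 26), against 48%; these scalings put the median of all log2 changes at 0.13 and -0.10, from -0.01.

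miR-223-3p lost the threshold with upper-quartile factors (0.53), in limma-voom (0.60, adjusted p = 0.0556) and after thinning (0.66, adjusted p = 0.0594), and ranged from 0.48 to 0.72 without a library. DESeq2 gave an adjusted p of 0.0106. miR-142a-5p ranged from 0.35 to 1.05 without a library. miR-223-5p changed sign with upper-quartile factors (-0.021) and after thinning (-0.22), and ranged from -0.20 to 0.21 without a library. The log2 ratio of miR-150-5p to miR-150-3p, female minus male, ranged from -0.11 to 0.89 without a library. Beyond thinning, the cause was not tested. miR-150-3p was tested only with no filter (too few counts), and miR-223-5p not with the filter of 50 counts. No paired analysis was possible because the labels give no pairing of animals. A difference in the minor arms of miR-223 and miR-150 was not detectable at this depth.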
